A study of Mus musculus with 24 samples.

Results

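Intercellular junction genes were described in the sorted intestinal epithelium of guanylin reporter mice. The group held 33 genes chosen by symbol, namely 15 claudins, 7 further tight junction genes, 5 cadherin and catenin genes, 5 desmosome genes and *Epcam*, and all 33 were found among the 53465 genes of the count table. Mice carried a bacterial artificial chromosome in which the fluorescent protein Venus took the place of the *Guca2a* coding sequence under the guanylin promoter. The line, labelled Guca2a-Venus, came from 1 founder and was crossed back into C57Bl6J to a varying degree, animals were fed standard chow, and their age is not given in the sources used here. Cells from duodenum, jejunum, ileum and colon were sorted as GFP positive or GFP negative (Venus-positive and Venus-negative), with dead cells, debris and CD45-positive cells gated out, which gave 8 groups of 3 libraries. The series describes the triplicates as 3 different mice, but the labels do not tie a library to a mouse, so no pairing was used and p-values measure the spread between libraries.

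Epithelial cells are joined at their apical border by tight junctions, below which lie the adherens junction and the desmosomes. Claudins are tetraspan proteins that set what passes between cells, with some members forming pores for ions and water and others sealing the gap. Cadherins hold neighbouring cells together by calcium-dependent contacts and are tied by catenins or plakins to actin or keratin filaments. In the intestine, claudin composition is known to differ between crypt and villus and along the gut.

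Counts assigned to genes ranged from 7458616 to 23063124 per library, and mitochondrial genes took 32.3 to 77.9% of them in Venus-positive and 61.2 to 80.7% in Venus-negative libraries. Levels are given as CPM, the usual depth-scaled read count, on library sizes adjusted by the trimmed mean of M values, where 3 counts equalled 0.106 to 0.36 CPM. *Guca2a* itself, whose promoter drives the reporter, was at 216 to 393 CPM in duodenal positive and 2.67 to 6.74 CPM in duodenal negative libraries, and positive and negative libraries did not overlap in any region. Several marker lists differed between the sorted fractions. All 8 goblet markers were higher in positive cells of each region, with *Muc2* and its companions summing to 53013 to 60457 CPM in duodenal positive and 310 to 434 CPM in duodenal negative libraries, but to 1907 to 4907 CPM in jejunal positive libraries. The 6 Paneth markers, led by *Lyz1*, were all higher in positive cells of the 3 small intestinal regions and in 0 of 6 cases in colon (edgeR quasi-likelihood test). Of 10 enterocyte markers, which include *Vil1*, 1 was higher and 2 lower in duodenal positive cells, while 9 were higher in jejunum, 10 in ileum and 4 in colon, with sums of 1204 to 2183 CPM in duodenal positive against 13126 to 14756 CPM in jejunal positive libraries. Of 7 stem and proliferative markers, 3 were lower in duodenal, 7 in jejunal, 7 in ileal and 3 in colonic positive cells. The 8 enteroendocrine markers were lower in positive cells in 8, 8, 7 and 5 cases in the same order of regions. Over all tested genes, 8.88% were higher and 8.08% lower in duodenum, and 18.3 and 25.6% in jejunum. The shares were 17.9 and 20.6% in ileum and 9.31 and 3.80% in colon. The 1 of 10 enterocyte markers higher in duodenum was near the share of all genes there. The colonocyte list summed to 1678 to 1831 CPM in colonic positive and 303 to 459 CPM in colonic negative libraries. The tuft list was lower in positive libraries of the small intestine, as at 3.58 to 5.51 against 18.7 to 30 CPM in duodenum, and overlapped in colon. The immune list summed to at most 29.5 CPM in any library, the endothelial list (*Pecam1*, *Cdh5* and 4 others) to at most 8.27 CPM and the fibroblast list to at most 18.4 CPM. Immune sums were 11 to 29.5 CPM in duodenal positive and 1.54 to 7.39 CPM in duodenal negative libraries, and overlapped in the other regions. None of these genes was at 0 throughout. The part of this cell mixture in the junction gene results was not tested, and in sorted bulk RNA fewer cells of a type and less RNA per cell cannot be told apart.

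Most junction genes that differed between the sorted fractions were higher in Venus-positive cells. Of the 33 genes, 26 passed the filter on low counts and were tested, and 7 claudins were not. In duodenum 4 genes were higher and 0 lower in positive cells (unadjusted p under 0.05 for 9 genes), while 8.88% of all 15044 tested genes were higher and 8.08% lower. In jejunum 16 were higher and 3 lower, against a background of 18.3% and 25.6%, and the lower call of *Cldn8* there rested on few reads. In ileum 17 were higher and 1 lower, against 17.9% and 20.6%. In colon 8 were higher and 0 lower (unadjusted p under 0.05 for 17), against 9.31% and 3.80%. Shares of all tested genes, here and below, are at an adjusted p under 0.05. None was computed at an unadjusted p, so the unadjusted counts have no background. The median log2 fold change of the tested junction genes was 0.37, 0.83, 0.92 and 0.76 from duodenum to colon, and that of all tested genes was -0.16, -0.28, -0.27 and 0. When libraries were scaled by their size alone, the median of the junction genes moved to 0.82, 1.12, 0.84 and 0.67 and that of all genes to 0.27, 0.02, -0.31 and -0.07. *Cldn4* and *Dsg2* were higher in positive cells of all 4 regions. *Cdh1*, *Cgn*, *Ctnnb1*, *Dsc2* and *Pkp3* were higher in 3 regions, 9 genes in 2 and 4 genes in 1. How many of all tested genes were called in as many regions was not computed, so these counts have no background. *Cldn2*, *Cldn12* and *Cldn8* were lower in at least 1 region, and *Ocln*, *Marveld2* and *Pkp2* passed the threshold in none in this fit, although jejunal *Ocln* did under several alternatives. The duodenal count fell to 2 without negative replicate 2 or positive replicate 3, and the colonic count to 3 without positive replicate 2 and to 5 without negative replicate 2.

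**Figure D1:**
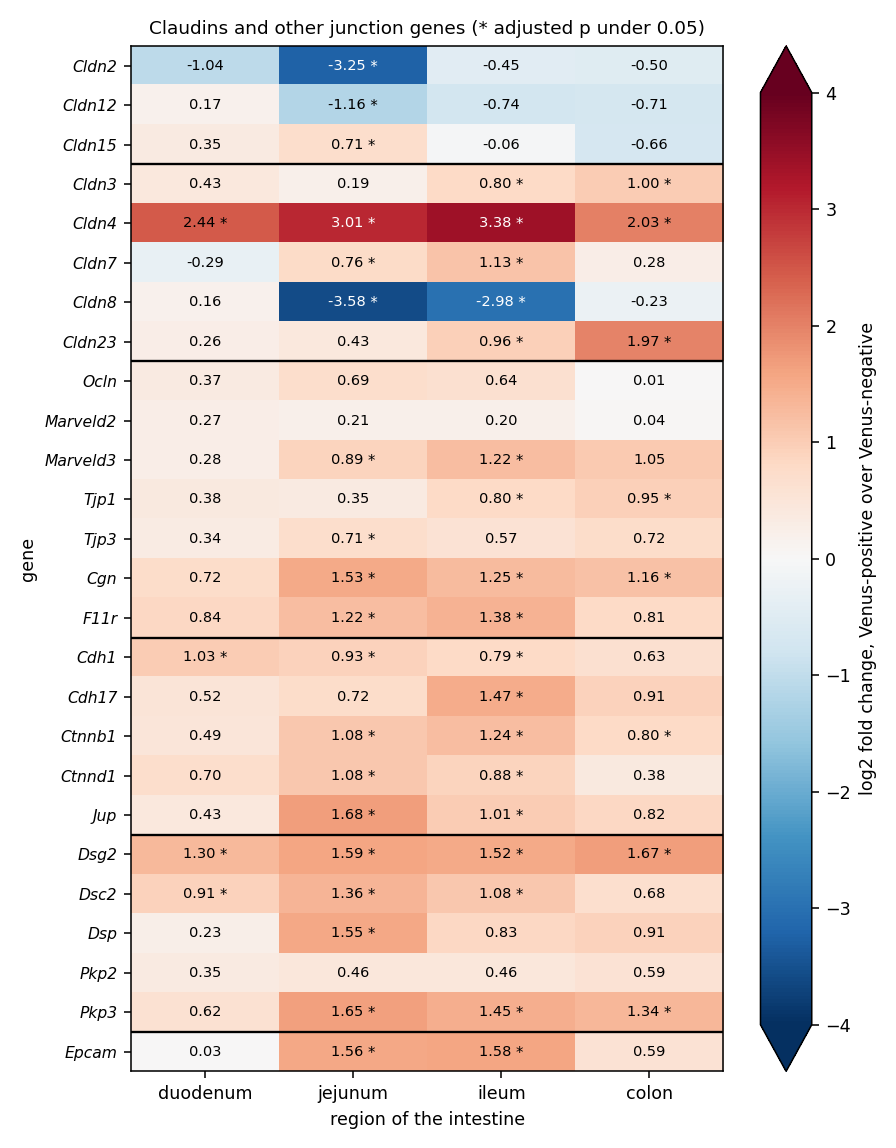
Log2 fold change of Venus-positive over Venus-negative cells (colour and printed value) for the 26 tested junction genes (rows, ordered as pore-forming claudins, other claudins, tight junction plaque genes, cadherins and catenins, desmosome genes and *Epcam*) in the 4 regions (columns), with an asterisk at an adjusted p under 0.05. *Cldn4* rose in every column, with values of 2.03 to 3.38, whereas *Cldn2* and *Cldn8* reached -3.25 and -3.58 in jejunum. The jejunal *Cldn8* value rests on at most 6 counts in a positive and 37 counts in a negative library, so its size is not established.

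Among the sealing claudins, *Cldn4* (chr5:134945119-134946934, minus strand, GRCm38), which tightens epithelia and is expressed in mature surface cells, had the larger difference of the 2 genes called in all 4 regions. In duodenum its levels were 26.1, 43.7 and 33.7 CPM in positive and 3.37, 8.95 and 6.70 CPM in negative libraries, a log2 fold change of 2.44 ± 0.53 (SE, n = 3; adjusted p = 0.00203). In jejunum positive libraries held 160, 87.0 and 41.9 CPM and negative libraries 13.7, 17.9 and 4.17 CPM (3.01 ± 0.54, adjusted p = 4.16e-05). In ileum they held 17.7, 44.6 and 81.4 CPM against 3.38, 4.51 and 5.88 CPM (3.38 ± 0.55, adjusted p = 1.71e-05). The lowest positive library lay above the highest negative library in each of these regions, although the positive libraries of jejunum and ileum differed several-fold among themselves. In colon the levels were 24.7, 26.7 and 13.5 against 2.28, 5.20 and 8.16 CPM (2.03 ± 0.54, adjusted p = 0.0104), again without overlap. The colonic difference missed the threshold without negative replicate 1 (1.70, adjusted p = 0.0565) or positive replicate 2 (1.79, adjusted p = 0.0626). The other 3 *Cldn4* sort calls were kept under every alternative tried.

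Promoter sequence is shown for 3 genes that the results turn on, *Cldn4*, which was higher in positive cells of all 4 regions, *Epcam*, higher in those of jejunum and ileum, and *Cldn2*, lower in those of jejunum. RefSeq windows of 300 bases (GRCm38.p6) matched 23 of the 33 genes by symbol. *Cdh17*, *Pkp3*, *Cldn9*, *Pkp2*, *Marveld3*, *Cdh1*, *Cldn8*, *Dsc2*, *Dsg2* and *Cldn23* were without an entry. The 250 bases before the RefSeq start are printed 5′ to 3′ on the gene's strand, at chr5:134946935-134947184 (minus strand) for *Cldn4*, chr17:87635729-87635978 (plus strand) for *Epcam* and chrX:139800558-139800807 (plus strand) for *Cldn2*. Capitals mark matches on either strand to the letters TGACTCA (AP-1 site), CACCTG (E-box bound by SNAI factors), GGGCGG (GC box) and TTTATG (core of the CDX site). They also mark TATAAA, the core promoter element read by TBP.
Cldn4: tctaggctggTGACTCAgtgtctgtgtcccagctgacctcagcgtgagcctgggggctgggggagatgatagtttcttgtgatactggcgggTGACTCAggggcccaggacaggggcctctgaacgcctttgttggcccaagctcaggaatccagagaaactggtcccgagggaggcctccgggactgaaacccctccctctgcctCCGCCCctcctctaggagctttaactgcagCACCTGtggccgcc
Epcam: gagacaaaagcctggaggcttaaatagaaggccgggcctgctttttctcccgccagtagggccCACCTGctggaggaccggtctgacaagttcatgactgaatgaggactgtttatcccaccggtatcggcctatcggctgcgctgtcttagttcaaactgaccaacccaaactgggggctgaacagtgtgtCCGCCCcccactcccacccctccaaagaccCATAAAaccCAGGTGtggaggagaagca
Cldn2: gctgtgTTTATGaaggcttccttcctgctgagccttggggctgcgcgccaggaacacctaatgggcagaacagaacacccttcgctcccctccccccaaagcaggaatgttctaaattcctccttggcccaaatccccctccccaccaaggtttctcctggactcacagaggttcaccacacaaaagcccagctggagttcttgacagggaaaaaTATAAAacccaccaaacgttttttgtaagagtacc
The upstream part of *Cldn4* held TGACTCA at 2 places, which 5.2% of all 32851 windows of 300 bases carry at least once on either strand, along with 1 CCGCCC and 1 CACCTG. That of *Epcam* held CACCTG and its complement CAGGTG (20.2% of windows), CCGCCC (35.7%) and CATAAA (11.9%). That of *Cldn2* held TATAAA (13.6%) and TTTATG (11.9%) and no match to the other 3. Letters of GTTAAT (HNF1 site, 7.1% of windows) and CTTTGA (TCF site, 16% of windows) were also searched and were not matched in these 3 stretches. A match describes the letters of the window and no more.

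The neighbouring *Cldn3* (chr5:134986214-134987472, plus strand), a further sealing claudin, differed less. Its mean was 151 ± 26.4 CPM (SD, n = 3) in duodenal positive and 112 ± 7.14 CPM in duodenal negative libraries (log2 fold change 0.43 ± 0.26, adjusted p = 0.271). It was higher in positive cells of ileum (0.80 ± 0.27, adjusted p = 0.0176) and colon (1.0 ± 0.27, adjusted p = 0.0116), where levels were 189, 214 and 144 against 86.1, 91.0 and 97.2 CPM. The ileal call was lost without negative replicates 1 or 2 or positive replicate 3 (0.61 to 0.75), the colonic call without positive or negative replicate 2 (0.82 and 0.93), and both with library size alone (0.77 and 0.90). *Cldn7*, a basolateral claudin that binds EpCAM, was at 103, 105 and 149 CPM in duodenal positive and 126, 150 and 162 CPM in duodenal negative libraries, which overlapped. In ileum it was at 203, 318 and 375 against 110, 122 and 177 CPM (1.13 ± 0.29, adjusted p = 0.00239). In jejunum it was at 342, 217 and 285 against 139, 138 and 219 CPM, where the groups overlapped (0.76 ± 0.29, adjusted p = 0.0305). The jejunal call was lost without positive replicates 1 or 3 or negative replicates 1 or 2 (0.60 to 0.75) and in a fit of the jejunal libraries alone (0.80, adjusted p = 0.0602).

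*Cldn23* was higher in positive cells of ileum and colon, and *Cldn8* was lower in those of jejunum and ileum. *Cldn23* (chr8:35824712-35826559) was at 32.6, 25.2 and 25.9 CPM in colonic positive and 5.39, 7.76 and 8.08 CPM in colonic negative libraries (log2 fold change 1.97 ± 0.33, adjusted p = 0.000136). It was also higher in ileal positive cells, with 12.1, 10.6 and 23.0 against 7.51, 6.03 and 9.92 CPM (0.96 ± 0.32, adjusted p = 0.0179), a call lost without negative replicates 1 or 2 or positive replicate 3 (0.53 to 0.93). *Cldn8*, a barrier to sodium in the distal colon, was most abundant in colon, where positive libraries held 18.9, 13.4 and 22.3 CPM and negative libraries 16.3, 20.3 and 27.6 CPM (-0.23 ± 0.67, adjusted p = 0.874). In ileum it was at 1.56, 0 and 0.736 CPM in positive and 7.47, 3.84 and 7.26 CPM in negative libraries (-2.98 ± 0.77, adjusted p = 0.00279), without overlap. In jejunum the positive libraries held 0, 0 and 6 counts and the negative libraries 37, 5 and 31 counts (-3.58 ± 1.0, adjusted p = 0.00439), a difference that rests on few reads. Only jejunal negative replicates 1 and 3 held at least 10 counts. The gene passed the filter on its counts in other regions, such as 109 to 181 in ileal negative libraries. The size of the jejunal fold change is therefore not established. In duodenum both fractions were between 0 and 8 counts.

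The remaining sealing claudins were near the detection limit. *Cldn1* had 16 counts over all 24 libraries, *Cldn5*, the claudin of endothelial barriers, 3, *Cldn6* 11, *Cldn9* 6 and *Cldn18*, whose isoforms mark stomach and lung, 8. The pore-forming *Cldn10* had 4. *Cldn14* reached 59 counts, of which the most in 1 library was 15, in colonic negative replicate 1. At these depths a level below about 0.36 CPM was not detectable in every library.

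Of the 3 tested pore-forming claudins, *Cldn2* and *Cldn12* were lower and *Cldn15* higher in positive cells of jejunum, and edgeR called none in the other regions (1, 0 and 1 at an unadjusted p under 0.05 in duodenum, ileum and colon). Over all tested genes 18.3% were higher and 25.6% lower in jejunum, against 8.88 and 8.08% in duodenum, 17.9 and 20.6% in ileum and 9.31 and 3.80% in colon. *Cldn2* (chrX:139800828-139811386, plus strand), a paracellular channel for cations and water, was at 0.383, 0.502 and 5.18 CPM in jejunal positive and 11.7, 20.1 and 24.3 CPM in jejunal negative libraries (log2 fold change -3.25 ± 0.55, adjusted p = 2.21e-05). All jejunal positive libraries lay below all negative ones, and positive replicate 3 had 71 counts where the others had 6 and 9. That library also had the least *Cldn4* of its group, 575 counts against 2506 and 1559. Positive minus negative differences in the mean log2 level of *Cldn2* were also taken within each i5 index. In jejunum the value was -4.84 in the index that held 2 positive and 2 negative libraries (replicates 1 and 2). It was -2.21 in the other index, which held 1 library of each fraction (replicate 3). A shared replicate number does not mark a pair. The size of the jejunal difference thus depended on the libraries, which also enter the *Cldn2* comparisons within positive cells below. In duodenum *Cldn2* was at 8.81, 9.52 and 21.5 against 27.2, 25.5 and 28.9 CPM (-1.04 ± 0.49, adjusted p = 0.145), without overlap, and the value passed the threshold with no filter (-0.97, adjusted p = 0.0447) and with the duodenal libraries alone (-0.99, adjusted p = 0.0240). In ileum it was at 48.3, 29.0 and 41.7 against 48.1, 55.7 and 58.9 CPM (-0.45 ± 0.48), and in colon at 31.9, 31.4 and 56.2 against 41.9, 55.1 and 71.7 CPM (-0.50 ± 0.48), and both overlapped.

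*Cldn15*, the main sodium channel of small intestinal tight junctions, was at 96.1, 75.7 and 120 CPM in jejunal positive and 51.5, 47.8 and 79.1 CPM in jejunal negative libraries (log2 fold change 0.71 ± 0.26, adjusted p = 0.0248). These groups overlapped, and the call was lost without positive replicates 1 or 3 or negative replicates 1 or 2 (0.53 to 0.72) and with the jejunal libraries alone (0.76). In colon it was at 19.2, 20.7 and 24 against 31.4, 38.1 and 31.3 CPM (-0.66 ± 0.26, adjusted p = 0.0934). The colonic groups did not overlap, and 5 alternatives brought this value past the threshold, among them DESeq2 (-0.74, adjusted p = 0.0179). *Cldn12*, linked to calcium passage, was at 9.01, 5.80 and 15.7 against 15.6, 12.5 and 40.0 CPM in jejunum (-1.16 ± 0.39, adjusted p = 0.0150). That call was lost without positive replicate 1 (-1.09), positive replicate 2 (-0.79) or negative replicate 3 (-0.47), with library size alone (-0.94) and with the jejunal libraries alone (-1.11). In ileum *Cldn12* was at 12.8, 11.5 and 15.4 against 15.9, 16.2 and 34.5 CPM (-0.74 ± 0.38, adjusted p = 0.124), without overlap but by a narrow margin, and passed the threshold with the filter of 10 counts in every library (-0.91, adjusted p = 0.0390).

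**Figure D2:**
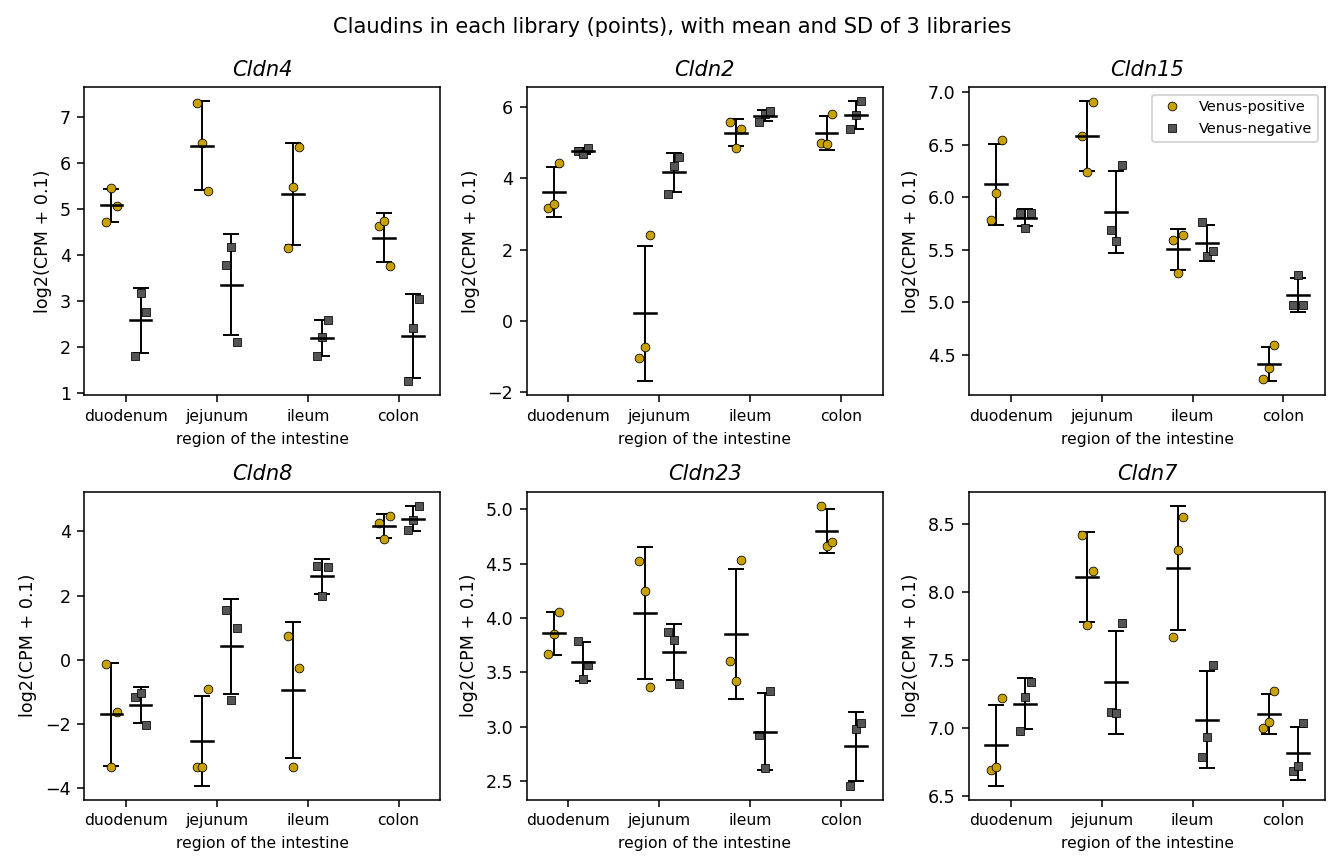
Levels of 6 claudins as log2(CPM + 0.1) (vertical axes) in each library by region, with Venus-positive libraries as circles and Venus-negative libraries as squares, and the mean and SD of 3 libraries as lines. *Cldn4* circles lie above squares in each region, and *Cldn2* circles fall to between 0.383 and 5.18 CPM in jejunum. From duodenum to colon *Cldn8* squares have means of 0.295, 1.67, 6.19 and 21.4 CPM, and its circles of 0.348, 0.146, 0.766 and 18.2 CPM. No step between neighbouring regions was called for the squares in the main fit, and those of duodenum and jejunum overlap.

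Tight junction plaque and MARVEL genes were higher in positive cells for 0 of 7 genes in duodenum by edgeR (2 at an unadjusted p under 0.05), 4 in jejunum, 4 in ileum and 2 in colon, where 8.88, 18.3, 17.9 and 9.31% of all tested genes were higher. *Cgn*, cingulin, which couples the plaque to actomyosin, was at 120, 153 and 74.4 CPM in jejunal positive and 34.8, 55.3 and 29.8 CPM in jejunal negative libraries (log2 fold change 1.53 ± 0.31, adjusted p = 0.000157). It was higher as well in ileum (1.25 ± 0.30, adjusted p = 0.00158) and colon (1.16 ± 0.30, adjusted p = 0.0101), the latter only with positive replicate 2 included (0.99 and adjusted p = 0.0744 without it). *F11r*, the adhesion molecule JAM-A, was at 123, 67.4 and 103 against 28.4, 30.6 and 66.7 CPM in jejunum (1.22 ± 0.30, adjusted p = 0.00170) and rose in ileum too (1.38 ± 0.31, adjusted p = 0.000622). In duodenum its value of 0.84 ± 0.30 missed the threshold (adjusted p = 0.0538), with 60.4, 69.9 and 73.2 against 31.4, 40.1 and 42.2 CPM, and 7 alternatives brought it past. Colonic *F11r*, not called, passed with the i5 covariate (0.82, adjusted p = 0.0399). Duodenal *Cgn*, not called either, passed with library size alone (1.18, adjusted p = 0.0143) and with the duodenal libraries alone (0.78, adjusted p = 0.0279).

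*Tjp1*, the scaffold ZO-1, was higher in positive cells of ileum (107, 115 and 110 against 74.5, 66.9 and 49.3 CPM, log2 fold change 0.80 ± 0.29, adjusted p = 0.0286) and colon (0.95 ± 0.29, adjusted p = 0.0280). The ileal call was lost without positive or negative replicates 2 or 3 (0.64 to 0.83), with library size alone (0.72) and with the filter of 10 counts in every library (0.61). The colonic call was lost without positive replicates 1 or 2 or negative replicates 2 or 3 (0.63 to 0.96), with RLE factors (0.85), library size alone (0.91), the filter of 10 counts (0.77) and the colonic libraries alone (0.83). *Tjp3*, the related ZO-3, was higher in jejunum (0.71 ± 0.25, adjusted p = 0.0232), a call lost without positive replicate 2 or negative replicates 1 or 3 (0.54 to 0.68), with no filter (0.81) and with the jejunal libraries alone (0.74). *Tjp3* overlaps *Apba3* on the opposite strand, as *Cldn3*, *Ctnnb1*, *Dsg2*, *Dsp*, *Tjp1* and *Marveld2* overlap other annotated genes, and with no strand setting given their reads cannot be told apart. *Ctnnd1*, *Ctnnb1*, *Tjp1* and *Cldn14* also overlap annotated genes on their own strand, where no strand setting would separate reads of a shared stretch. *Marveld3*, a relative of occludin, was higher in jejunum (0.89 ± 0.36, adjusted p = 0.0442) and ileum (1.22 ± 0.36, adjusted p = 0.00748), and the jejunal call was lost without any 1 of 5 of the 6 jejunal libraries, negative replicate 3 being the exception (0.80 to 0.99), and with the filter of 10 counts in every library (0.78). Colonic *Marveld3* was not called, but passed by DESeq2 (0.99, adjusted p = 0.0406), with no filter (1.03), the i5 covariate (1.11) and without negative replicate 3 (1.37). Colonic *Tjp3*, also not called, passed by DESeq2 (0.64, adjusted p = 0.0431), with the i5 covariate (0.72) and without positive replicate 3 (0.86). Ileal *Tjp3* passed by DESeq2 (0.62, adjusted p = 0.0258). *Ocln*, occludin, was at 137, 64.3 and 113 against 55.3, 41.1 and 98.1 CPM in jejunum (0.69 ± 0.33, adjusted p = 0.0861), and at 47.9, 48.5 and 44.2 against 35.6, 38.5 and 65.0 CPM in colon (0.01 ± 0.33). The jejunal value passed the threshold by DESeq2 (0.83, adjusted p = 0.0280), with RLE factors, library size alone and the i5 covariate, and without negative replicate 3 (1.12, adjusted p = 0.0116) or positive replicate 2 (1.03, adjusted p = 0.0236). *Marveld2*, tricellulin, which sits where 3 cells meet, stayed between 5.17 and 16.8 CPM in all 24 libraries, and its 4 differences were between 0.04 and 0.27 with SE of 0.29 to 0.30.

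Cadherins and catenins were higher in positive cells for 1 of 5 genes in duodenum, 4 in jejunum, 5 in ileum and 1 in colon, against 8.88, 18.3, 17.9 and 9.31% of all tested genes. *Cdh1* (chr8:106603351-106670246, plus strand), E-cadherin, was at 301, 303 and 418 CPM in duodenal positive and 189, 141 and 172 CPM in duodenal negative libraries (log2 fold change 1.03 ± 0.28, adjusted p = 0.0120). In jejunum it was at 393, 314 and 309 against 144, 181 and 210 CPM (0.93 ± 0.28, adjusted p = 0.00860). In ileum it was at 276, 394 and 501.6 against 266, 234 and 177 CPM (0.79 ± 0.28, adjusted p = 0.0262), and in colon at 373, 362 and 285 against 271, 213 and 173 CPM (0.63 ± 0.28, adjusted p = 0.141). Positive and negative libraries did not overlap in any region, but the margin in ileum and colon was narrow. The duodenal call was lost without negative replicate 2 (0.91) or positive replicate 3 (0.85), and the ileal call without positive or negative replicates 2 or 3 (0.56 to 0.81), with library size alone (0.71) and with the filter of 10 counts in every library (0.60).

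*Cdh17*, the intestinal LI-cadherin, was at 439, 607 and 818 CPM in ileal positive and 172, 190 and 310 CPM in ileal negative libraries (log2 fold change 1.47 ± 0.36, adjusted p = 0.00161). In jejunum 1 negative library, replicate 3, held 727 CPM where the others held 273 and 258 CPM, and the difference was 0.72 ± 0.35 (adjusted p = 0.0996). Without that library it was 1.38 (adjusted p = 0.00238), and with all libraries it passed the threshold by DESeq2 (0.86, adjusted p = 0.0239), with RLE factors, with no filter and with the i5 covariate. Colonic *Cdh17*, also not called, passed with the i5 covariate (0.91, adjusted p = 0.0318). *Ctnnb1*, β-catenin, which serves both the junction and Wnt signalling, rose in jejunum (1.08 ± 0.26, adjusted p = 0.00138) and ileum (1.24 ± 0.27, adjusted p = 0.000436). Its colonic value of 0.80 ± 0.26 (adjusted p = 0.0430), from 232, 270 and 219 against 136, 133 and 146 CPM, was lost without any 1 of the 6 colonic libraries (0.66 to 0.87). It was lost as well with RLE factors (0.71), library size alone (0.70), no filter (0.79), the filter of 10 counts (0.61), protein-coding genes alone (0.71) and the colonic libraries alone (0.67), and was kept by DESeq2 and with the i5 covariate. *Jup*, plakoglobin, shared by adherens junctions and desmosomes, was at 171, 139 and 100 against 41.5, 50.2 and 36.7 CPM in jejunum (1.68 ± 0.32, adjusted p = 8.3e-05). In ileum its value was 1.01 ± 0.31 (adjusted p = 0.0107), lost without positive replicate 2 (0.76) or negative replicate 3 (0.73). *Ctnnd1*, p120-catenin, which stabilises E-cadherin, rose in jejunum (1.08 ± 0.32, adjusted p = 0.00645) and ileum (0.88 ± 0.31, adjusted p = 0.0266), and the ileal call was lost without positive or negative replicates 2 or 3 (0.73 to 0.86), with library size alone (0.78) and with the filter of 10 counts in every library (0.69).

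Desmosome genes were higher in positive cells for 2 of 5 genes in duodenum, 4 in jejunum, 3 in ileum and 2 in colon, beside shares of 8.88, 18.3, 17.9 and 9.31% over all tested genes. *Dsg2*, a desmosomal cadherin of simple epithelia, was at 157, 140 and 174 CPM in duodenal positive and 67.9, 54.1 and 69.1 CPM in duodenal negative libraries (log2 fold change 1.3 ± 0.27, adjusted p = 0.00129). In jejunum it was at 356, 277 and 264 against 91.1, 98.0 and 109 CPM (1.59 ± 0.27, adjusted p = 2.53e-05). In ileum it was at 268, 325 and 436 against 149, 112 and 97.2 CPM (1.52 ± 0.27, adjusted p = 5.34e-05). In colon it was at 294, 342 and 210 against 108, 79.8 and 78.4 CPM (1.67 ± 0.27, adjusted p = 0.000101). The groups did not overlap in any region, and the 4 calls were kept under every alternative tried. Its partner *Dsc2* was higher in jejunum (1.36 ± 0.30, adjusted p = 0.000478), ileum (1.08 ± 0.30, adjusted p = 0.00468) and duodenum (0.91 ± 0.30, adjusted p = 0.0340). The duodenal call of *Dsc2* was lost without any 1 of the 6 duodenal libraries (0.86 to 0.94), and the ileal call without positive replicate 3 (0.67).

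Among the plaque proteins of the desmosome, *Pkp3*, plakophilin 3, was at 46.8, 52.9 and 31.8 CPM in jejunal positive and 14.7, 13.9 and 13.3 CPM in jejunal negative libraries (log2 fold change 1.65 ± 0.28, adjusted p = 2.46e-05). It was also higher in ileum (1.45 ± 0.28, adjusted p = 0.000135) and colon (1.34 ± 0.29, adjusted p = 0.00195), and had 12.7, 12.0 and 16.7 against 6.59, 9.01 and 11.2 CPM in duodenum (0.62 ± 0.28, adjusted p = 0.128). *Dsp*, desmoplakin, which anchors keratin filaments, was at 1245, 971 and 686 against 403, 412 and 179 CPM in jejunum (1.55 ± 0.39, adjusted p = 0.00204). In duodenum it was at 407, 213 and 193 against 335, 212 and 146 CPM and overlapped (0.23 ± 0.39, adjusted p = 0.727). *Pkp2*, the plakophilin of heart and simple epithelia, lay between 9.10 and 25.1 CPM in all 24 libraries, with differences of 0.35 to 0.59 and SE of 0.28 to 0.29.

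*Epcam* (chr17:87635979-87651129, plus strand), an adhesion protein that stabilises claudin 7, divided the duodenum from the lower small intestine. In duodenum positive libraries held 306, 337 and 463 CPM and negative libraries 319, 375 and 387 CPM (log2 fold change 0.03 ± 0.30, adjusted p = 0.958), which overlapped. In jejunum the levels were 1413, 1004 and 1168 against 340, 341 and 532 CPM (1.56 ± 0.30, adjusted p = 0.000123). In ileum they were 692, 1262 and 1643 against 376, 399 and 432 CPM (1.58 ± 0.30, adjusted p = 0.000142), and neither region overlapped. In colon they were 411, 457 and 459 against 287, 269 and 326 CPM (0.59 ± 0.30, adjusted p = 0.207), without overlap.

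**Figure D3:**
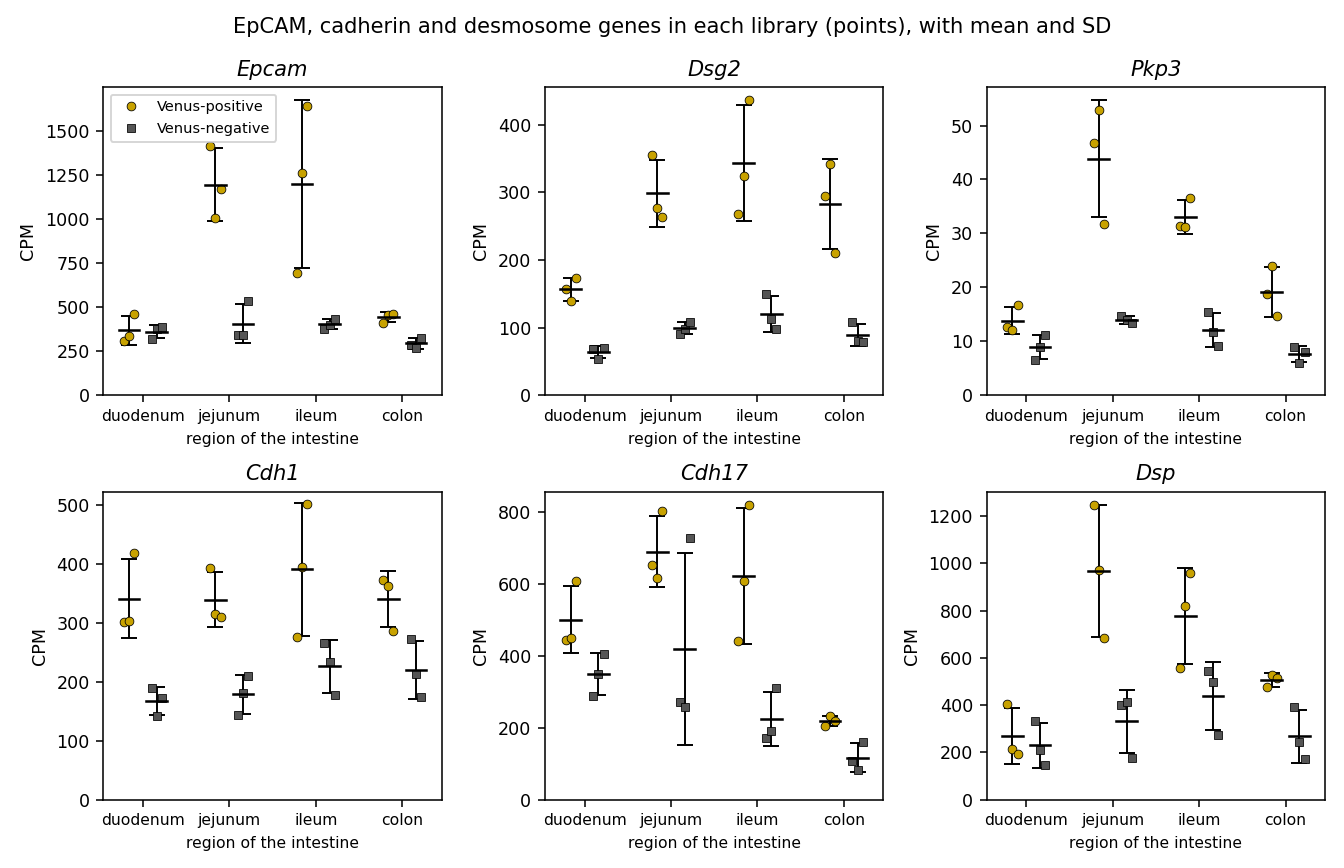
Levels of *Epcam*, *Dsg2*, *Pkp3*, *Cdh1*, *Cdh17* and *Dsp* in CPM (vertical axes from 0) in each library by region, with Venus-positive libraries as circles, Venus-negative libraries as squares, and the mean and SD of 3 libraries as lines. *Epcam* circles rise from 306 to 463 CPM in duodenum to 692 to 1643 CPM in ileum while the squares stay between 269 and 532 CPM, and *Dsg2* circles lie above the squares in every region.

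Whether the sort difference itself changed along the gut was tested by contrasts within the same fit. The duodenal difference was compared with the mean of the jejunal and ileal differences, and 2 of 26 junction genes were called where 17.5% of all genes were. For *Epcam* the duodenal difference was lower by 1.54 ± 0.37 on the log2 scale (adjusted p = 0.00388), and for *Cldn7* by 1.24 ± 0.35 (adjusted p = 0.0136). With library size alone these became -1.21 (adjusted p = 0.0590) and -0.93 (adjusted p = 0.140), and without duodenal positive replicate 2 *Cldn7* was at -1.16 (adjusted p = 0.0510). The count rose to 6 without jejunal positive replicate 3, with *Cldn2* then at 1.87 (adjusted p = 0.00278). *Cldn8*, at 3.44 ± 1.33 (adjusted p = 0.0722) and with few reads in duodenum and jejunum, was called with library size alone (3.75, adjusted p = 0.0441), with no filter (3.43, adjusted p = 0.00197) and without duodenal positive replicate 2, ileal positive replicate 1, jejunal negative replicate 2 or jejunal positive replicate 3 (3.68 to 5.47). The colonic difference was compared with the mean of the 3 small intestinal ones, where 1 of 26 was called against 4.13% of all genes. *Cldn23* differed by 1.42 ± 0.37 (adjusted p = 0.0270), but its call was lost without 1 of 7 libraries (jejunal negative replicate 1, jejunal positive replicate 2, the 3 colonic positive replicates and colonic negative replicates 1 and 2), at 1.28 to 1.48. It was also lost with library size alone (1.08) and with RLE factors (1.28). *Cldn15* had the opposite sign in this contrast, at -0.99 ± 0.30 (adjusted p = 0.0529), and was called by DESeq2 (-1.15, adjusted p = 0.00229), with RLE factors (-1.15), the filter of 10 counts in every library (-1.07), protein-coding genes alone (-1.12) and the i5 covariate (-0.99), and without jejunal positive replicate 2 (-1.15) or jejunal negative replicate 3 (-1.07). That count was 3 without jejunal positive replicate 3, 2 without jejunal negative replicate 3 and 0 without jejunal negative replicate 1, any colonic positive replicate or colonic negative replicates 1 or 2. Goblet and enterocyte marker sums, given above, also differed between duodenal and jejunal positive libraries, and their part in these contrasts was not tested.

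Within the Venus-negative cells, between duodenum and jejunum 0 of 26 genes were called by edgeR (4 at an unadjusted p under 0.05, 0 by DESeq2), where 0.725% of all genes were. Between jejunum and ileum 0 were called (5 at an unadjusted p under 0.05, 1 by DESeq2), against 2.11%. Between ileum and colon 0 were called (6 at an unadjusted p under 0.05, 0 by DESeq2), against 5.24%. These shares are at an adjusted p under 0.05 by edgeR and give no background for the unadjusted counts. *Cldn8* in negative cells went from 0.295 ± 0.132 CPM in duodenum to 1.67 ± 1.26 in jejunum, 6.19 ± 2.03 in ileum and 21.4 ± 5.71 CPM in colon (SD, n = 3), and its neighbouring regions had adjusted p of 0.413, 0.265 and 0.148. With no filter on low counts all 3 of these steps passed the threshold, at log2 fold changes of -2.42 (adjusted p = 0.00563), -1.94 (adjusted p = 0.00428) and -1.88 (adjusted p = 0.00178). Ileum against colon passed as well with those libraries alone (-1.92, adjusted p = 0.00755), and jejunum against ileum with library size alone (-2.55, adjusted p = 0.0433). *Cldn2* in negative cells was lower in jejunum than in ileum by 1.53 ± 0.49 on the log2 scale (adjusted p = 0.123), and this difference was called by DESeq2 (-1.61, adjusted p = 0.0404), with no filter (-1.58, adjusted p = 0.000232), with library size alone (-2.10, adjusted p = 0.0189) and with the compared libraries alone (-1.58, adjusted p = 0.0150).

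Within the Venus-positive cells 13 of 26 genes differed between duodenum and jejunum, 2 higher in duodenum and 11 lower, against 18.4% and 14.8% of all genes. *Cldn2* was higher in duodenum (log2 fold change 2.75 ± 0.55, adjusted p = 0.000269), as was *Cldn12* (1.09 ± 0.39, adjusted p = 0.0298). The genes lower in duodenum were *Dsp* (-1.84), *Epcam* (-1.70), *Pkp3* (-1.67), *Jup* (-1.52), *Cldn4* (-1.48), *Cgn* (-1.41), *Cldn7* (-1.24), *Ctnnd1* (-1.04), *Dsg2* (-0.93), *Dsc2* (-0.81) and *Ctnnb1* (-0.71). The count fell to 8 without jejunal positive replicate 1 or duodenal positive replicate 3. Those were among the libraries on which calls turned, with *Cldn12* lost without jejunal positive replicates 1 or 2 or duodenal positive replicates 2 or 3 (0.84 to 1.07) and *Cldn4* without jejunal positive replicate 1 or duodenal positive replicates 1 or 3 (-1.47 to -0.91). *Ctnnd1* was lost without jejunal positive replicate 2 (-0.84) or duodenal positive replicate 3 (-0.86) and *Dsg2* without jejunal positive replicate 1 (-0.80), and both with library size alone (-0.90 and -0.81). *Ctnnb1* was lost without any 1 of the libraries but jejunal positive replicate 3 (-0.76 to -0.63), and *Dsc2* without any but jejunal positive replicate 2 (-0.86 to -0.67). Both were lost with library size alone (-0.59 and -0.69), no filter (-0.72 and -0.82) and the filter of 10 counts (-0.55 and -0.65), and *Ctnnb1* with protein-coding genes alone (-0.65).

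Between jejunum and ileum 2 genes differed in positive cells, 1 higher in jejunum and 1 lower, against 2.15% and 3.00% of all genes. *Cldn15* was higher in jejunum (log2 fold change 1.10 ± 0.26, adjusted p = 0.00772), a call lost without ileal positive replicate 2 (0.99, adjusted p = 0.0662) and with library size alone (0.83, adjusted p = 0.155). *Cldn2* was the lower gene, at 2.02 ± 2.73 CPM in jejunum and 39.7 ± 9.85 CPM in ileum (SD, n = 3), and the regions stood -4.33 ± 0.57 apart on the log2 scale (SE; adjusted p = 4.2e-06). Between ileum and colon 7 genes were higher in ileum and 2 lower, against 10.7% and 11%. *Cdh17* (1.51 ± 0.36, adjusted p = 0.00275), *Epcam* (1.44 ± 0.30, adjusted p = 0.000848), *Cldn7* (1.11 ± 0.29), *Cldn15* (1.10 ± 0.26), *Ocln* (0.97 ± 0.33), *Dsc2* (0.86 ± 0.30) and *Pkp3* (0.79 ± 0.28) were the higher genes. *Cldn8* was lower in ileum by 4.53 ± 0.81 on the log2 scale (adjusted p = 0.000108), from 18.2 ± 4.51 CPM in colon to 0.766 ± 0.781 CPM in ileum, and *Cldn23* by 0.88 ± 0.32 (adjusted p = 0.0462). The count fell to 5 without colonic positive replicates 1 or 3 or ileal positive replicate 3. *Cldn7* was lost without ileal positive replicate 3 (0.91), *Ocln* without that library or any colonic positive replicate (0.67 to 0.99), and *Dsc2* without any library but ileal positive replicate 1 (0.45 to 0.94). *Pkp3* was lost without any library but colonic positive replicate 2 (0.63 to 0.83), and *Cldn23* without any but ileal positive replicate 3 (-0.97 to -0.67). *Cldn23* was also lost with library size alone (-0.36, adjusted p = 0.523) and no filter (-0.88, adjusted p = 0.102), and *Dsc2* and *Pkp3* with no filter (0.86 and 0.78) and the filter of 10 counts (0.73 and 0.65). Other genes gained a call as higher in ileum. *Ctnnd1* passed by DESeq2 (0.84, adjusted p = 0.0475), with the i5 covariate (0.84) and with the compared libraries alone (0.84). *Ctnnb1* passed by DESeq2 (0.69, adjusted p = 0.0170) and with the i5 covariate (0.65). *Cldn4* passed with no filter (1.14), and *Tjp1* (0.59) and *Pkp2* (0.69) with the compared libraries alone.

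Levels can be set between genes only per kilobase of exon. *Epcam* ranked first of the 33 in all 8 groups, at 134 ± 13.4 CPM per kilobase in colonic negative and 546 ± 218 CPM per kilobase in ileal positive cells (SD, n = 3). *Cldn3* was second in 5 groups, at 72.6 ± 4.44 CPM per kilobase in colonic negative and 145 ± 28.1 CPM per kilobase in colonic positive cells. In jejunal positive cells *Cdh17* (154 ± 22.1 CPM per kilobase) and *Cldn7* (144 ± 32.1 CPM per kilobase) followed *Epcam* (544 ± 93.8 CPM per kilobase), and those 2 did not differ beyond their spread. *Cldn3*, *Cldn7*, *Cdh1* and *Cdh17* were among the first 7 genes of the order in all 8 groups.

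The wider junction was read from 80 further genes of tight, adherens and desmosomal junctions, keratins and membrane proteases, of which 51 were tested. Of these 13 were higher and 2 lower in duodenal positive cells, 21 and 7 in jejunum, 22 and 6 in ileum and 17 and 1 in colon. Over all tested genes the shares higher and lower were 8.88 and 8.08% in duodenum, 18.3 and 25.6% in jejunum, 17.9 and 20.6% in ileum and 9.31 and 3.80% in colon. Of 14 other claudins 1 passed the filter, and it was called in none of the regions. Among 18 tested scaffold and polarity genes 9 were higher and 2 lower in jejunum (18.3 and 25.6% of all genes), and 8 higher and 2 lower in ileum (17.9 and 20.6%). *Pard6b*, a subunit of the apical polarity complex, was at a mean of 58.1 CPM in jejunal positive and 9.96 CPM in jejunal negative libraries (log2 fold change 2.55 ± 0.31, adjusted p = 2.78e-07), and 14.3 against 9.14 CPM in duodenum (0.64 ± 0.30, adjusted p = 0.144). *Ybx3*, a factor that binds ZO-1, was lower in jejunum (-2.44 ± 0.34, adjusted p = 1.48e-06) and ileum (-1.88 ± 0.33, adjusted p = 3.98e-05), and *Cgnl1*, paracingulin, in ileum (-2.75 ± 0.53, adjusted p = 0.000143). *Amotl1* had 0 counts in the 3 jejunal positive libraries and 8, 0 and 0 counts in the negative ones, so its call there rests on 1 library, jejunal negative replicate 1, without which its value was 0.00.

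Among junctional immunoglobulin proteins *Cxadr*, the coxsackievirus and adenovirus receptor, was higher in positive cells of all 4 regions (log2 fold change 1.47 to 1.95), and *Igsf5*, JAM-4, in ileum (1.26 ± 0.24, adjusted p = 9.49e-05) and colon (0.71 ± 0.24, adjusted p = 0.0430). *Ildr1*, angulin-2 of tricellular contacts, was lower in jejunum (-2.16 ± 0.51, adjusted p = 0.000943) and higher in colon (1.89 ± 0.41, adjusted p = 0.00202). *Esam* was at 0 counts in the ileal positive libraries and at 30, 10 and 23 counts in the negative ones, at least 5.09-fold lower when 3 counts per library are taken as the floor. Of the adherens junction genes *Ctnna1*, α-catenin, was higher in all 4 regions (1.07 to 2.16), *Plekha7* in jejunum, ileum and colon (0.99 to 1.34) and *Vcl*, vinculin, in jejunum (1.19 ± 0.32) and ileum (1.18 ± 0.32). *Nectin1* was higher in duodenum (1.39 ± 0.37, adjusted p = 0.0105) and lower in ileum (-1.04 ± 0.38, adjusted p = 0.0300).

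Of the other desmosome genes *Pkp4* was higher in jejunum (log2 fold change 1.62 ± 0.31), ileum (1.48 ± 0.31) and colon (1.06 ± 0.31), and *Evpl*, envoplakin, in ileum (1.95 ± 0.36) and jejunum (0.94 ± 0.36). *Pkp1* was lower in jejunum (-3.44 ± 0.65, adjusted p = 7.93e-05) and ileum (-1.99 ± 0.57, adjusted p = 0.00612), and *Perp* higher in ileum (0.97 ± 0.38, adjusted p = 0.0440). Keratins are the filaments desmosomes bind, and of 6 keratins 5 were higher in duodenum, 2 higher and 3 lower in jejunum, 2 and 1 in ileum and 2 and 0 in colon. The background shares were 8.88% higher in duodenum, 18.3% higher and 25.6% lower in jejunum, 17.9 and 20.6% in ileum and 9.31 and 3.80% in colon. *Krt20*, the keratin of differentiated intestinal cells, was higher in all 4 regions (2.32 to 3.57), whereas *Krt19* was lower in jejunum (-2.84 ± 0.42, adjusted p = 3.91e-06). *Krt7* was higher in duodenum (1.51 ± 0.33, adjusted p = 0.00217) and lower in jejunum (-2.18 ± 0.35, adjusted p = 9.8e-06), and *Krt23* was higher in duodenum (3.18 ± 0.57, adjusted p = 0.000206). The matriptase inhibitors *Spint1* (0.98 to 1.91) and *Spint2* (0.81 to 1.17) were higher in all 4 regions. The protease itself, *St14*, was higher in jejunum (1.52 ± 0.28), ileum (1.10 ± 0.28) and colon (1.07 ± 0.28).

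**Figure D4:**
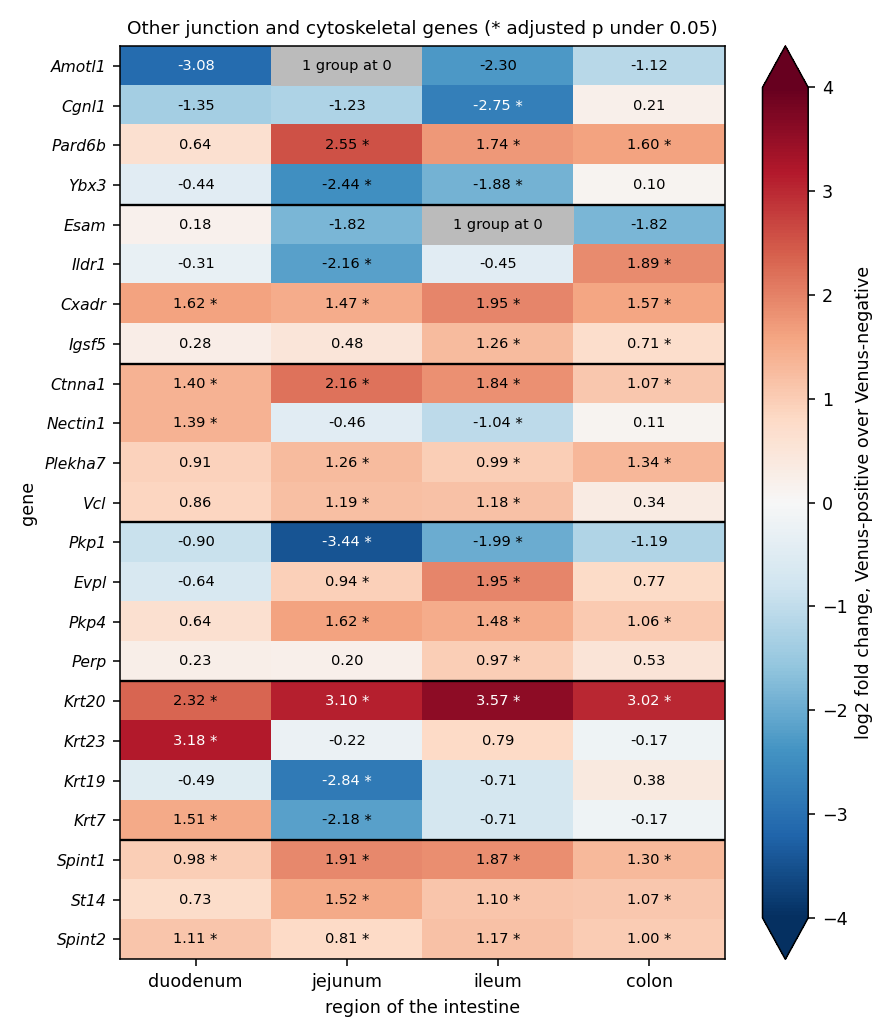
Log2 fold change of Venus-positive over Venus-negative cells (colour and printed value) for 23 further genes (rows, ordered as scaffold and polarity, immunoglobulin and tricellular, adherens, desmosome, keratin, and protease genes) in the 4 regions (columns), with an asterisk at an adjusted p under 0.05 and grey where all libraries of 1 group had 0 counts. *Krt20*, *Cxadr*, *Ctnna1*, *Spint1* and *Spint2* are higher in all 4 columns, and *Krt7* and *Ildr1* change sign between regions.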

How the data were processed

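Ribosome-depleted RNA-seq libraries from sorted cells were aligned by the authors with STAR 2.5.1 (version from the submitters' processing notes) to GRCm38, and the deposited table holds raw read counts per Ensembl gene for 24 libraries. The annotation and strand setting of the counting are not given in the sources used here, so reads of genes overlapping on opposite strands cannot be told apart. Between 39.4 and 75.8% of reads stood on 4 lines that name no gene and were left out. Gene names came from GENCODE M21 (53360 of 53465 IDs). Columns outside the series numbered 0.

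Counts were tested with edgeR 4.0.16 in R 4.3.3 by the quasi-likelihood test, with 1 model of 8 groups, TMM factors, at least 10 counts by filterByExpr, and Benjamini-Hochberg adjustment over all 15044 genes (threshold 0.05). Errors of log2 fold changes are approximate standard errors, taken as the absolute log2 fold change divided by the square root of the F statistic. The code was tested on simulated data. The alternatives were DESeq2 1.42.0, RLE factors, library size alone, 2 other filters, protein-coding genes alone, the i5 index as covariate, the compared libraries alone and leaving out each library. Differences within each i5 index were added after the data were seen. Members and lists were chosen with earlier results of these data known. All members could be named, and of each other list up to 4 called genes with the largest change.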

Additional observations from a re-analysis of the deposited data

Results flagged for a closer look

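Sort differences (Venus-positive against Venus-negative cells) that themselves differed between regions in the edgeR fit are given for every junction gene of the lists past the threshold, which goes beyond the genes named above. Values are differences of log2 fold changes ± SE with 3 libraries a group, and no cause was tested. They are signed, so that a more positive difference can be a smaller fall in positive cells.

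Duodenum was compared with the mean of jejunum and ileum. The sort difference was more positive in duodenum for the keratins *Krt7* (2.96 ± 0.41, adjusted p = 1.53e-05), *Krt18* (2.93 ± 0.34, adjusted p = 2.38e-06) and *Krt23* (2.90 ± 0.67, adjusted p = 0.00292). It was also more positive for *Nectin1* (2.14 ± 0.46) and for *Ybx3* (1.72 ± 0.39), whose own sort differences were -0.44 in duodenum, -2.44 in jejunum and -1.88 in ileum. *Krt18* changed direction by the test, at 1.88 in duodenum, -1.28 in jejunum and -0.83 in ileum. The difference was less positive or more negative in duodenum for *Epcam* (-1.54 ± 0.37) and *Cldn7* (-1.24 ± 0.35), and for the polarity and scaffold genes *Amotl2* (-3.18 ± 0.65), *Mpp5* (-1.57 ± 0.36), *Prkcz* (-1.51 ± 0.40), *Pard6b* (-1.50 ± 0.37), *Patj* (-1.31 ± 0.38) and *Magi3* (-1.21 ± 0.35). The same held for *Evpl* (-2.09 ± 0.45), *Nectin3* (-1.41 ± 0.37) and *Spint1* (-0.91 ± 0.30).

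Colon was compared with the mean of the 3 small intestinal regions. The sort difference was more positive in colon for *Ildr1* (2.86 ± 0.49, adjusted p = 0.000954), *Cgnl1* (1.98 ± 0.55), *Krt19* (1.73 ± 0.46), *Ybx3* (1.69 ± 0.37) and *Cldn23* (1.42 ± 0.37). *Ybx3* was at 0.10 and *Krt19* at 0.38 in colon, where neither was called, and both had negative values in the small intestine, from -0.44 to -2.44 and from -0.49 to -2.84. The contrast had the opposite sign for the tricellular gene *Lsr* (-1.62 ± 0.27, adjusted p = 0.000741) and for *Arhgef2* (-1.36 ± 0.36).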

How the results depend on the processing

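Of 76 called differences of the 33 junction genes, 53 stayed past the threshold under every alternative that kept all libraries and gave a value, and 42 also after the removal of any single library. The filter of 10 counts in every library gave no value for *Cldn2* or *Cldn8*. DESeq2 and the i5 index as covariate ended 0 of the 76 calls, and library size alone ended 17. All 49 called sort differences had the same sign within both i5 indices, a check chosen after seeing the data. The calls came from the same libraries, which largely fixes that sign, and in each region 1 index held only 1 positive and 1 negative library.

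Counts of called genes moved as follows. In duodenum (4) library size alone gave 9, where 15.1% of all genes were higher and 2.33% lower, the compared libraries alone 7 (15% and 12.2%), and leaving out 1 library 2 to 3. In colon (8) library size alone gave 5 (6.74% and 3.37%), the i5 covariate 13 (10.6% and 4.51%), and leaving out 1 library 3 to 8. For the duodenal contrast of sort differences (2) DESeq2 gave 4 (20.7% of all genes), library size alone 1 (16.1%) and leaving out 1 library 2 to 6. For the colonic contrast (1) DESeq2, the filter of 10 counts in every library, protein-coding genes alone and the i5 covariate gave 2 each (7.15, 6.31, 4.89 and 5.84% of all genes), library size alone 0 (2.69%), and leaving out 1 library 0 to 3. In negative cells, duodenum against jejunum (0) gave 1 with no filter (0.714%). Jejunum against ileum (0) gave 1 with DESeq2 (2.89%), 3 with library size alone (4.49%), 3 with no filter (1.36%) and 1 with the compared libraries alone (1.96%). Ileum against colon (0) gave 7, all higher in ileum, with library size alone (10.6% higher and 1.56% lower over all genes), 1 with no filter (2.82% called), 1 with the compared libraries alone (4%), and 0 to 1 when leaving out 1 library, the 1 without colonic negative replicate 1. In positive cells, duodenum against jejunum (13) gave 8 to 12 when leaving out 1 library. Jejunum against ileum (2) gave 1 with library size alone (5.96%), 1 with the filter of 10 counts in every library (6.06%), and 1 to 3 when leaving out 1 library, the 1 without ileal positive replicate 2. Ileum against colon (9) gave 18, 17 of them higher in ileum, with library size alone (18.8% and 5.07%) and 5 to 10 when leaving out 1 library. The causes were not tested. Leaving out 1 jejunal library moved *Amotl1* between -5.18 and 0.00, the latter without jejunal negative replicate 1, the only jejunal library with reads of it.

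No paired analysis was possible because the labels do not tie libraries to mice and the replicate numbers follow accession order. With 3 libraries a group and 0.106 to 0.36 CPM as the worth of 3 counts, differences in claudins of a few reads could be missed. The jejunal *Cldn8* difference, which was called, also rests on few reads.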
